A study of Homo sapiens with 6 samples.

Results

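The genes described here encode the enzymes that cut the extracellular matrix and cell-surface proteins, and the inhibitors that hold part of them in check. They were taken from the deposited table by name: matrix metalloproteinases (MMP followed by a number), tissue inhibitors of metalloproteinases (TIMP1 to TIMP4), ADAM and ADAMTS genes followed by a number, and PLAU, PLAUR and PLAT of the plasminogen system. Of the 56505 rows of the table, 70 matched, and 68 remained after the pseudogenes ADAM5 and ADAM6 were left out. The 6 RNA-seq libraries are labelled MDA-MB-468, an established line from a breast cancer that lacks hormone receptors and HER2 amplification, here grown with serum and given no further treatment. In 3 libraries the cells carried the control short hairpin RNA pLK0-shControl (shControl), and in 3 they carried pLK0-shCK5-425222, a hairpin that targets cytokeratin 5 (shCK5 from here on), the keratin of basal epithelial cells encoded by KRT5. A single knockdown hairpin was sequenced, no parental cells were included, and nothing in the labels tells whether replicates are separate cultures, so a p-value here speaks only of the spread among these libraries, which may be technical.

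Matrix metalloproteinases are zinc enzymes made as inactive precursors. They cut collagens, gelatin, laminins and one another, and some are anchored in the cell membrane. TIMPs bind their active site, and TIMP2 also takes part with MMP14 in activating the precursor of MMP2 at the cell surface. ADAMs are membrane proteins of the same enzyme clan that release growth factors, receptors and adhesion molecules from the surface, and some members have lost the active site. ADAMTS enzymes are secreted, bind the matrix, and cut proteoglycans, procollagens or single large glycoproteins. PLAU and PLAT turn plasminogen into plasmin, and PLAUR holds PLAU at the cell surface.

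Many members gave no reading in this table, and this went with the overlap of their gene models with other genes; how it arose in the counting was not tested. Among 1694 protein-coding genes of GENCODE v29 whose exons lie wholly inside the span of other genes on either strand, 1530 (90.3%) had no count in any library, against 921 of 9247 genes (9.96%) whose exons are free of overlap. All 10 members of the first kind were at 0 in every library: TIMP1, TIMP3 and TIMP4, which lie inside the synapsin genes SYN1, SYN3 and SYN2, MMP1 and MMP10, which lie inside WTAPP1, and MMP24, MMP28, ADAM7, ADAM20 and ADAM21. A 0 in these rows is not read here as lack of expression. ADAM28 and ADAMTS19, with 1.7% and 12.1% of their exon bases outside other genes, were also at 0, as was MMP3 (77.6%, the rest inside WTAPP1). MMP12, MMP27 and ADAM30 overlap no other gene in their exons and had no count either, which allows up to 0.0133 CPM in the shControl group and 0.0132 CPM in the shCK5 group (a floor of 3 counts over the 3 libraries of a group, covering counting error only; CPM is a count per 1000000 counts of the scaled library).

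**Figure D1:**
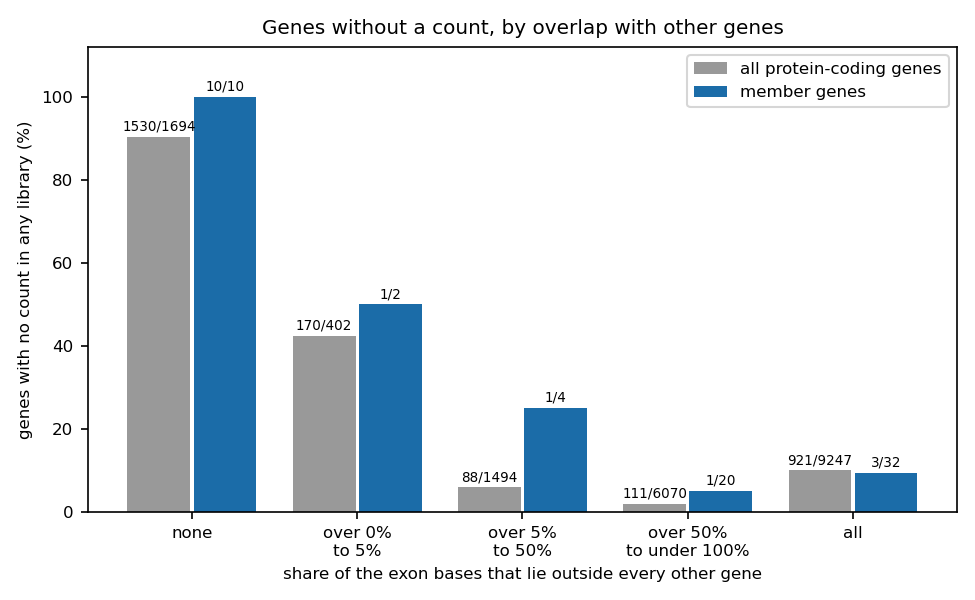
Share of genes with no count in any of the 6 libraries (vertical axis, percent) by the share of their exon bases outside every other gene (horizontal axis, 5 classes), for all protein-coding genes (grey) and for the members (blue), with numbers of genes over the bars. Genes wholly inside others were at 0 in 1530 of 1694 cases, and the 10 members of that class were all at 0.

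Total counts lay between 68810882 and 83594772 per library. KRT5, the targeted gene, had 2056, 2060 and 2017 CPM in shControl and 17.2, 15.5 and 16.5 CPM in shCK5; the difference is -6.96 on the log2 scale (SE 0.0369; edgeR, adjusted p = 1.15e-34), in the direction of the labels. Other defining markers differed as well: of 10 line and epithelial markers 8 were lower and 2 higher in shCK5, and the 2 higher genes, RB1 and SMAD4, are deleted in MDA-MB-468 (means of 101 and 16.9 CPM in shCK5 against 2.00 and 0.235 CPM in shControl). All 7 mesenchymal markers were higher, with a summed level of 95.9 to 99.5 CPM in shControl and 3047 to 3159 CPM in shCK5. Over all genes tested, 40.9% were called higher and 41.7% lower in shCK5, so counts of markers are a description only. Whether both groups come from the same cells was not tested, so every difference below is one between libraries with these labels. Of 10 fibroblast markers only 3 had enough counts to be tested, of which 1 rose and 2 fell. The sums over the 10 were 19.2 to 20.2 CPM in shControl and 12.3 to 14.4 CPM in shCK5, and THY1 and POSTN were at 0 throughout. Of 10 leukocyte markers only 4 could be tested, of which 3 fell and none rose. The sums over the 10 were 16.3 to 19.0 against 2.89 to 3.82 CPM, with CD3D, MS4A1 and CD68 among those at 0. Of 10 endothelial markers, 5 rose and 4 fell (18.5 to 21.2 against 146.0 to 156.2 CPM); ESAM alone went from 1.31 ± 0.243 to 118 ± 3.97 CPM (SD, n = 3 each). THY1 and CD68 lie wholly inside other genes. The part of other cells in the results was not tested.

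Of the 68 members, 16 had no count, 12 had between 2 and 40 counts in all and did not pass the filter on low counts, and 40 were tested. Of these 40, 23 were higher and 14 lower in shCK5 (edgeR's quasi-likelihood test, Benjamini-Hochberg adjusted p below 0.05 over all genes tested), and ADAM32, ADAMTS8 and ADAMTS2 did not pass. The background was high, with 82.7% of the 19567 genes tested called, 40.9% of them higher and 41.7% lower. Differences above 2-fold were called in 32 of the 40 members, 20 higher and 12 lower, and in 44.0% of all genes tested (19.6% higher, 24.4% lower). The groups did not overlap in 38 of the 40 and in 84.2% of all genes. In 9 tested members the mean lay below 0.132 CPM (10 counts at the median library size) in 1 group, so that they passed the filter through the other group, and the shares of tested members are given as a description only. The median log2 fold change was 0.825 over the tested members and -0.0194 over all genes tested.

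**Figure D2:**
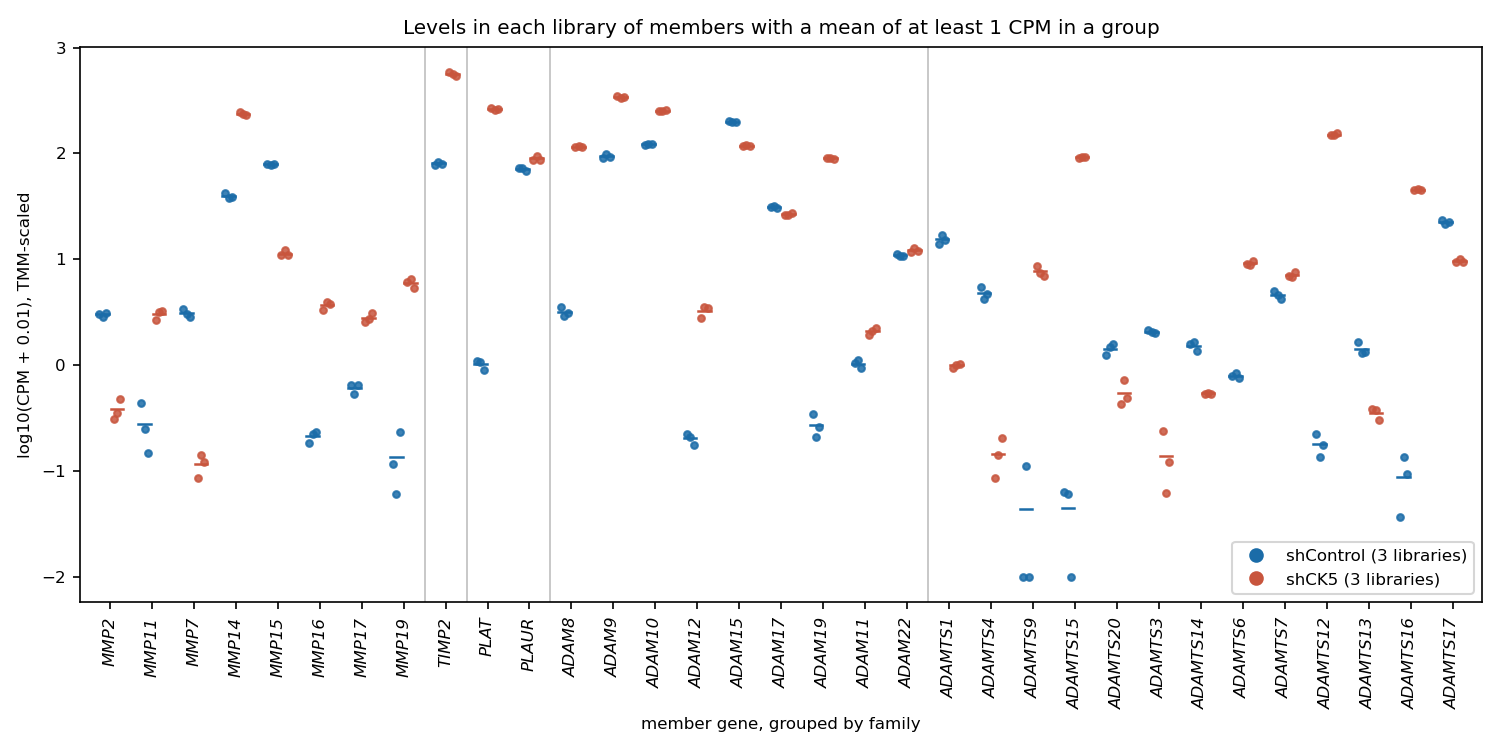
Level of each member with a mean of at least 1 CPM in a group (horizontal axis, grouped by family) as log10(CPM + 0.01) in each library (points) with the group mean (bar), shControl in blue and shCK5 in red. PLAT, ADAM19, ADAMTS12, ADAMTS15 and ADAMTS16 lie near or below 1 CPM in shControl and above 45 CPM in shCK5, and MMP15, MMP7, ADAMTS1 and ADAMTS4 lie lower in shCK5.

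Counts assigned to the members made up 0.0837% of all counts in shControl and 0.235% in shCK5. Summed over the 5 families, the level was 798 ± 7.16 CPM in shControl and 2469 ± 26.8 CPM in shCK5 (SD, n = 3 each), and different genes led in each group. In shControl ADAM15 held 24.9% of that sum, and in shCK5 TIMP2 held 22.8%. The sums of all 5 families were higher in shCK5, by 2.08-fold for MMPs, 7.001-fold for TIMPs (TIMP2 being the only one with counts), 4.86-fold for the plasminogen genes, 2.08-fold for ADAMs and 5.87-fold for ADAMTSs. These sums are not divided by gene length, so shares within them are shares of counts, and members that lie inside other genes add little or nothing to them. The sums of MMPs, ADAMs and ADAMTSs also hold members that fell. In bulk RNA, a change in the number of cells that make a transcript and a change in transcript per cell cannot be told apart.

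Promoter letters were examined for the members with an entry in the RefSeq table of GRCh38.p14, which holds 250 bases before and 50 after a gene's start. It had 42 windows for 40 members. The letters TGAGTCA, read on either strand, which form the binding motif of AP-1, a factor long studied on protease promoters, stood in 2 of the 42 windows and in 4.95% of all 35116 windows. TATAAA on the sense strand stood in 7 of 42 and in 7.33% of all. The AP-1 letters were found in MMP7, at position -67 from the start with TATAAA at -30, and in PLAUR, at -186. These are the 250 bases before the start of each, shown because the pair carries the same letters and differed in direction, 5′ to 3′ on the gene's strand with the AP-1 and TATAAA letters in capitals (MMP7 chr11:102530748-102530997 and PLAUR chr19:43670170-43670419, both minus strand).
MMP7: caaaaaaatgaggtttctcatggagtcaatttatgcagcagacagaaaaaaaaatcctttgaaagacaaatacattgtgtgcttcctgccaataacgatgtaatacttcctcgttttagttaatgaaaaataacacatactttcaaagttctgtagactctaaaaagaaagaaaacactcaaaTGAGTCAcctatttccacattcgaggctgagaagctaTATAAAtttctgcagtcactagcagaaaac
PLAUR: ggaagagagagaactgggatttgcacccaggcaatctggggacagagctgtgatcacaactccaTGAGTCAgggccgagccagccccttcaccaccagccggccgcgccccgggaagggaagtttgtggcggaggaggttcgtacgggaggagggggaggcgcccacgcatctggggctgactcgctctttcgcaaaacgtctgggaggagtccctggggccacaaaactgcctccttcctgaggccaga
MMP7 was 29.1-fold lower and PLAUR 1.25-fold higher in shCK5. A match is a description of letters and not evidence of binding.

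CpG dinucleotides, the sites of DNA methylation, ranged from 0 to 47 per window among the members (median 25.5, against 14 over all windows). Windows of members that were higher held a median of 28 and those of members that were lower 31.5. Windows of untested members held a median of 13.5, but several of these members lie inside other genes, such as TIMP1, TIMP3 and MMP24. For those, being untested is not read as lack of expression. The 5 windows from the MMP cluster on chromosome 11 (MMP7, MMP8, MMP10, MMP20 and MMP27) held 2 to 4. ADAM8 and ADAM15 both have CpG-rich windows and went in opposite directions. Their 250 bases before the start are shown for that reason, 5′ to 3′ on the gene's strand with CpG in capitals (ADAM8 chr10:133276869-133277118, minus strand, and ADAM15 chr1:155051066-155051315, plus strand).
ADAM8: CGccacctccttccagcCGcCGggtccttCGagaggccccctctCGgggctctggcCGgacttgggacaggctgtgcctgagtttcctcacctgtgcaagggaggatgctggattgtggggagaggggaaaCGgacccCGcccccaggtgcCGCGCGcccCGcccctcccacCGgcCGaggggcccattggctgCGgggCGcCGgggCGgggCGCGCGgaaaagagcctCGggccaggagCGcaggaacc
ADAM15: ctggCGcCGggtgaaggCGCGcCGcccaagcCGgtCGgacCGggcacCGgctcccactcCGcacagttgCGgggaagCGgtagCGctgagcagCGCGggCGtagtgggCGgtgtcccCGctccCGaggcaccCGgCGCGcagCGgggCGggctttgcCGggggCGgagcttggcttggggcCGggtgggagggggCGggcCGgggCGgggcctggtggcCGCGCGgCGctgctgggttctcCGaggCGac
The stretches hold 23 and 36 CpG dinucleotides. ADAM8 was 36.4-fold higher and ADAM15 1.68-fold lower in shCK5, and no methylation was measured.

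Among the MMPs, the membrane-type enzymes carried most of the counts, and the leading one changed from MMP15 to MMP14. MMP14 (ENSG00000157227.12, chromosome 14, 22836557 to 22849027, plus strand, GRCh38), a membrane-anchored collagenase, had 42.6, 37.99 and 38.96 CPM in shControl and 244, 237 and 231 CPM in shCK5. The groups did not overlap, and MMP14 rose by 2.58 on the log2 scale (SE 0.0368, edgeR adjusted p = 5.87e-27). MMP15 (ENSG00000102996.4, chromosome 16, 58025566 to 58046901, plus strand), its closest relative among the membrane-type enzymes, had 79.0, 78.0 and 79.9 CPM in shControl and 10.9, 12.1 and 10.9 CPM in shCK5. It was 6.97-fold lower, with no overlap (log2 fold change -2.80, SE 0.0444, edgeR adjusted p = 4.88e-26). In shControl, MMP15 held 62.0% of the summed MMP level, and in shCK5 MMP14 held 89.4%. The other transmembrane enzyme with counts, MMP16, rose from 0.204 ± 0.0256 to 3.68 ± 0.359 CPM. The 2 members anchored by a lipid tail moved apart: MMP17 rose from 0.604 ± 0.0671 to 2.78 ± 0.293 CPM (SD, n = 3 each), and MMP25, of whose exon bases 32.9% lie outside other genes, fell from 0.508 ± 0.146 to 0.142 ± 0.0726 CPM.

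Both gelatinases, which cut denatured collagen and basement membrane collagen, had low levels and opposite directions. MMP2 had 3.06, 2.87 and 3.11 CPM in shControl and 0.302, 0.341 and 0.470 CPM in shCK5. It was 8.12-fold lower (log2 fold change -3.02, SE 0.197, edgeR adjusted p = 3.40e-13), while MMP14 and TIMP2, which activate its precursor, were higher. MMP9 had 0.0537, 0.0251 and 0.0836 CPM in shControl and 0.328, 0.236 and 0.166 CPM in shCK5, from 12 and 56 counts in all (log2 fold change 2.16, SE 0.563, edgeR adjusted p = 0.00114). The groups did not overlap for either gene, and MMP9 stayed below 0.4 CPM in every library.

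The remaining MMPs included one large decrease and 2 large increases. MMP7 (ENSG00000137673.8, chromosome 11, 102520508 to 102530753, minus strand), or matrilysin, a small secreted protease made mostly by epithelial cells, had 3.36, 3.01 and 2.87 CPM in shControl and 0.0756, 0.131 and 0.111 CPM in shCK5. Its level was 29.1-fold lower, on 696 against 24 counts (log2 fold change -4.85, SE 0.245, edgeR adjusted p = 1.84e-15). MMP19 went the other way, from 0.107, 0.0501 and 0.223 CPM to 6.07, 6.56 and 5.31 CPM (log2 fold change 5.57, SE 0.227; 6.24 without shControl replicate 3). MMP11, or stromelysin 3, a secreted MMP activated inside the cell, rose from 0.269 ± 0.148 to 3.04 ± 0.340 CPM (SD, n = 3 each). MMP20, the protease of tooth enamel, fell by 1.48 on the log2 scale, but 58 of its 108 shControl counts came from replicate 3, and without that library it no longer passed (log2 fold change -0.907, edgeR adjusted p = 0.0857). No collagenase of the secreted type could be tested: MMP13 had 16 counts in shControl and 4 in shCK5, MMP8 had 2 counts in all, and MMP1 was at 0. MMP21 and MMP26 had 40 and 19 counts in all.

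Of the TIMPs, TIMP2 alone had counts. TIMP2 (ENSG00000035862.12, chromosome 17, 78852977 to 78925387, minus strand) had 78.2, 83.9 and 79.2 CPM in shControl and 586, 559 and 545 CPM in shCK5. It was 7.001-fold higher, with no overlap (log2 fold change 2.81, SE 0.0329, edgeR adjusted p = 1.06e-28), and 85.9% of its exon bases lie outside other genes. The group means were 80.4 ± 3.03 and 563 ± 20.7 CPM (SD, n = 3 each). Its target MMP14 was 5.96-fold higher in the same libraries. TIMP1, TIMP3 and TIMP4 give no value either way, for the overlap described above.

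In the plasminogen system, tissue-type plasminogen activator had one of the largest increases and the receptor one of the smallest. PLAT (ENSG00000104368.17, chromosome 8, 42175233 to 42207724, minus strand) had 1.07, 1.05 and 0.892 CPM in shControl and 270, 260 and 261 CPM in shCK5. It was 262-fold higher, on 228 against 60131 counts (log2 fold change 8.03, SE 0.0524, edgeR adjusted p = 2.00e-33). PLAUR (ENSG00000011422.11, chromosome 19, 43646095 to 43670547, minus strand), the urokinase receptor, had 73.5, 73.5 and 68.5 CPM in shControl and 87.3, 95.3 and 87.3 CPM in shCK5. The groups did not overlap, but the difference was 1.25-fold (log2 fold change 0.325, SE 0.0373, edgeR adjusted p = 1.75e-08). With libraries scaled by size alone, the log2 fold change of PLAUR was 0.188. PLAU, urokinase itself, had 0.0940, 0.0752 and 0.0139 CPM in shControl and 0.340, 0.315 and 0.304 CPM in shCK5, from 14 and 73 counts. Only 118 of its 2950 exon bases (4.0%) lie outside other genes (it overlaps C10orf55), so its level cannot be set beside those of other genes, and its increase by 2.34 on the log2 scale (SE 0.529; edgeR, adjusted p = 0.000276) rests on few counts. C10orf55 had no count in shControl and 13 in shCK5.

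The ADAMs with a working active site fell into a group that differed by large factors and a group that was abundant in both conditions. ADAM19, or meltrin beta, a sheddase of neuregulin, had 0.336, 0.201 and 0.251 CPM in shControl and 90.1, 91.4 and 89.4 CPM in shCK5. ADAM19 rose by 8.42 on the log2 scale (SE 0.0776, edgeR adjusted p = 1.13e-30), on 59 against 20583 counts. ADAM8, best known from leukocytes and also found in breast tumours, had 3.53, 2.88 and 3.12 CPM in shControl and 114, 118 and 115 CPM in shCK5 (log2 fold change 5.19, SE 0.0517, edgeR adjusted p = 4.64e-30). ADAM12, or meltrin alpha, rose from 0.194 ± 0.0244 to 3.26 ± 0.425 CPM (SD, n = 3 each). For these 3 genes every shCK5 library lay above every shControl library by more than 10-fold.

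ADAM10 and ADAM17, the main sheddases of Notch receptors and of EGFR ligands and TNF, moved in opposite directions. ADAM10 (ENSG00000137845.14, chromosome 15, 58588807 to 58749978, minus strand) had 120, 123 and 122 CPM in shControl and 252, 250 and 256 CPM in shCK5 (2.08-fold higher, log2 fold change 1.05, SE 0.0270, edgeR adjusted p = 1.03e-21). ADAM17 (ENSG00000151694.13, chromosome 2, 9488486 to 9556732, minus strand) had 31.2, 31.6 and 30.8 CPM in shControl and 26.2, 26.2 and 27.3 CPM in shCK5 (1.17-fold lower, log2 fold change -0.232, SE 0.0430, edgeR adjusted p = 2.63e-05). The ADAM17 difference was small but exceeded the spread between libraries. Its size depended on the scaling, with a log2 fold change of -0.369 when libraries were scaled by size alone. ADAM9, a widely expressed sheddase, had 90.8, 98.1 and 93.4 CPM in shControl and 346, 331 and 343 CPM in shCK5 (3.62-fold higher). ADAM15, or metargidin, which carries an integrin-binding motif in its disintegrin domain, had 202, 197 and 197 CPM in shControl and 118, 121 and 117 CPM in shCK5 (1.68-fold lower, log2 fold change -0.747, SE 0.0280, edgeR adjusted p = 3.38e-18). ADAM15 supplied the largest share of the ADAM sum in shControl, 43.02%, and ADAM9 in shCK5, 35.4%. ADAM33, the other active member with counts, had 8 in shControl and 2 in shCK5 and was not tested.

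Of the 3 tested members without a working active site, ADAM22 rose 1.12-fold, ADAM11 rose 2.03-fold and 1 did not pass. ADAM22, a neuronal receptor of LGI proteins, had 11.3, 10.8 and 10.6 CPM in shControl and 11.7, 12.9 and 12.1 CPM in shCK5, 1.12-fold higher. Its call (log2 fold change 0.161, edgeR adjusted p = 0.0280) was lost when libraries were scaled by size alone (0.0239, edgeR adjusted p = 0.742) and without shControl replicate 2, shControl replicate 3 or shCK5 replicate 2 (edgeR adjusted p = 0.0510, 0.0841 and 0.103). ADAM11 rose from 1.02 ± 0.0940 to 2.08 ± 0.163 CPM, and ADAM32 had 0.833 ± 0.118 and 0.676 ± 0.146 CPM, without passing (SD, n = 3 each; edgeR adjusted p = 0.281). ADAM2, ADAM18, ADAM23 and ADAM29 had 6 to 30 counts in all.

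The ADAMTS genes held large differences in both directions, and their subfamilies did not move as units. Of 6 tested proteoglycanases, which cut aggrecan, versican and related core proteins, 2 rose and 3 fell. ADAMTS15 (ENSG00000166106.3, chromosome 11, 130448974 to 130476641, plus strand) had 0.0537, 0.0501 and 0 CPM in shControl and 90.9, 92.1 and 92.8 CPM in shCK5, from 8 against 20954 counts (log2 fold change 11.28, SE 0.109, edgeR adjusted p = 2.78e-30). DESeq2 gave a larger SE of 0.512. The log2 fold change was 10.75 without shControl replicate 3 and 11.68 without shControl replicate 1. ADAMTS9 had 8 counts in shControl, all in replicate 2, and 8.68, 7.34 and 7.01 CPM in shCK5 (log2 fold change 7.70, SE 0.293; 12.2 without shControl replicate 2). ADAMTS9 overlaps the antisense gene ADAMTS9-AS2, which rose too (from 0.142 ± 0.0577 to 1.34 ± 0.145 CPM). Without a stated strand setting or rule for overlaps, how reads were assigned where they overlap is not known. Of the exon bases of ADAMTS9, 88.8% lie outside other genes.

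The proteoglycanases that fell were ADAMTS1, ADAMTS4 and ADAMTS20. ADAMTS1 had 14.1, 17.1 and 15.1 CPM in shControl and 0.932, 0.997 and 1.02 CPM in shCK5 (15.7-fold lower, log2 fold change -3.97, SE 0.107, edgeR adjusted p = 2.89e-21). ADAMTS4, an aggrecanase, had 5.48, 4.25 and 4.64 CPM in shControl and 0.0756, 0.131 and 0.194 CPM in shCK5 (35.9-fold lower, log2 fold change -5.17, SE 0.226, edgeR adjusted p = 8.38e-17). ADAMTS20 fell from 1.42 ± 0.168 to 0.540 ± 0.160 CPM. The high values of ADAMTS15 and ADAMTS9 thus stood in the libraries where ADAMTS1, ADAMTS4 and ADAMTS20 were low. ADAMTS8 had 46 counts in each group, and ADAMTS5 had 8 counts in shControl and none in shCK5, with 16.9% of its exon bases outside other genes.

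The procollagen N-proteinases, which trim the amino end of fibrillar procollagens, were low in both groups, and 2 of 3 fell. ADAMTS3, which also takes part in activating VEGFC, fell from 2.05 ± 0.0601 to 0.130 ± 0.0887 CPM (log2 fold change -3.95, SE 0.302; -4.63 without shCK5 replicate 1). ADAMTS14 fell from 1.51 ± 0.144 to 0.531 ± 0.00632 CPM. ADAMTS2 had 0.186 ± 0.0197 and 0.127 ± 0.0168 CPM (SD, n = 3 each) and did not pass (edgeR adjusted p = 0.287), although its groups did not overlap.

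Of the other ADAMTS genes, 4 rose and 2 fell. ADAMTS12 (ENSG00000151388.10, chromosome 5, 33523535 to 33892192, minus strand), which cuts cartilage oligomeric matrix protein, had 0.215, 0.1254 and 0.167 CPM in shControl and 149, 148 and 155 CPM in shCK5 (889-fold higher, log2 fold change 9.79, SE 0.0743, edgeR adjusted p = 3.63e-32). It held 46.3% of the ADAMTS sum in shCK5. ADAMTS16 (chromosome 5, 5140330 to 5320304, plus strand) had 0.0268, 0.1254 and 0.0836 CPM in shControl and 45.1, 46.2 and 45.4 CPM in shCK5 (580-fold higher, log2 fold change 9.13, SE 0.118). ADAMTS7, the nearest relative of ADAMTS12, differed far less, with 4.58 ± 0.420 and 7.11 ± 0.442 CPM (1.55-fold higher, log2 fold change 0.634, SE 0.0934), and ADAMTS6, which acts on microfibrils, rose from 0.786 ± 0.0380 to 9.14 ± 0.371 CPM. ADAMTS17, also linked to microfibrils and the source of 40.6% of the ADAMTS sum in shControl, fell from 22.4 ± 0.853 to 9.58 ± 0.351 CPM. ADAMTS13, the protease of von Willebrand factor, fell from 1.42 ± 0.191 to 0.345 ± 0.0478 CPM (SD, n = 3 each). ADAMTS10 had 19 counts in shControl and none in shCK5, which is 6.39-fold lower when shCK5 is set at the floor of 3 counts over the group. That value takes the 19 counts as exact and each count as a separate fragment, so the true bound may be smaller. ADAMTS18 had 12 counts in all.

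**Figure D3:**
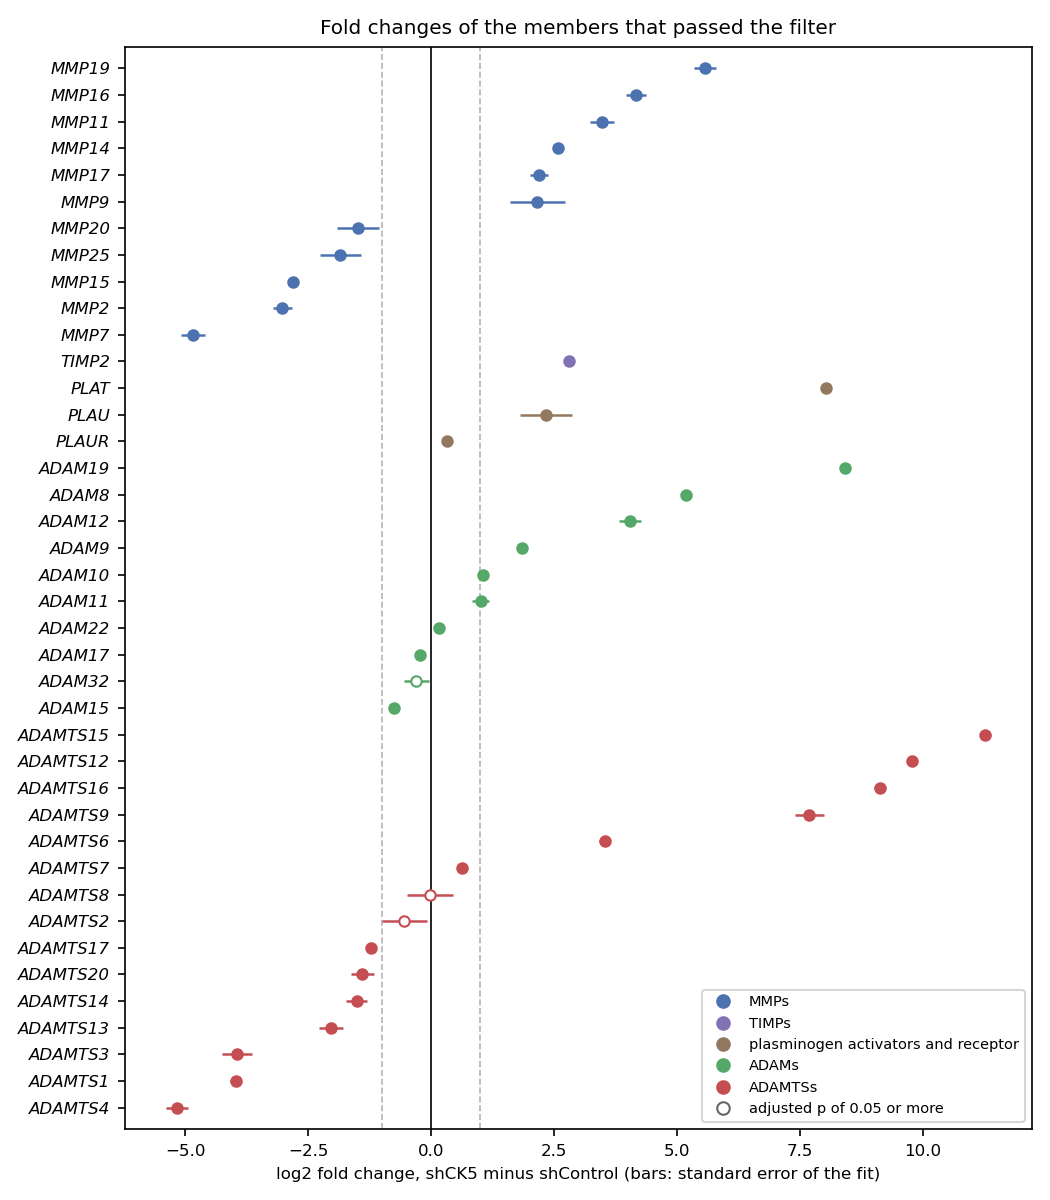
Log2 fold change of shCK5 minus shControl (horizontal axis) with the standard error of the fit (bars) for the 40 tested members (vertical axis, ordered within families, which are coloured); open points had an adjusted p of 0.05 or more, and dashed lines mark 2-fold. MMPs and ADAMTSs spread to both sides, from -5.17 for ADAMTS4 to 11.28 for ADAMTS15, and the 2 ADAMs that were called lower lie inside the 2-fold lines. Bars come from the F statistic and were shorter than the SE of DESeq2 for ADAMTS15, ADAMTS9 and ADAM19.

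Levels of different genes were compared per length, as mean CPM per kb of exon in GENCODE v29. In shControl the order was ADAM15 (30.2), MMP15 (17.9), PLAUR (16.1), TIMP2 (14.3), ADAM9 (13.6), MMP14 (8.92) and ADAM10 (7.52), each in CPM per kb. The ranges of TIMP2 and ADAM9 over the 3 libraries overlapped, at 13.9 to 14.9 and 13.1 to 14.2 CPM per kb. In shCK5 the order was TIMP2 (99.98), MMP14 (53.2), ADAM9 (49.2), PLAT (39.8), ADAM8 (24.2), PLAUR (20.2), ADAM15 (18.0), ADAMTS15 (16.2), ADAM10 (15.6) and ADAMTS12 (15.4). ADAM10 and ADAMTS12 overlapped there, at 15.5 to 15.8 and 15.1 to 15.8 CPM per kb. The genes that entered the first 10 in shCK5 were PLAT, ADAM8, ADAMTS15 and ADAMTS12, whose levels in shControl were below 1 CPM per kb. ADAM15, first in shControl, was seventh in shCK5. Those that left the first 10 were MMP15 (rank 2 in shControl, 13 in shCK5), ADAM17 (8 and 14), ADAMTS17 (9 and 16) and ADAMTS1 (10 and 26). Members without a count have no place in these orders, and PLAU, with 4.0% of its exon bases outside other genes, was left out of them. Lengths are those of all annotated exons, not of the transcripts made in these cells, so levels per kb are approximate.

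**Figure D4:**
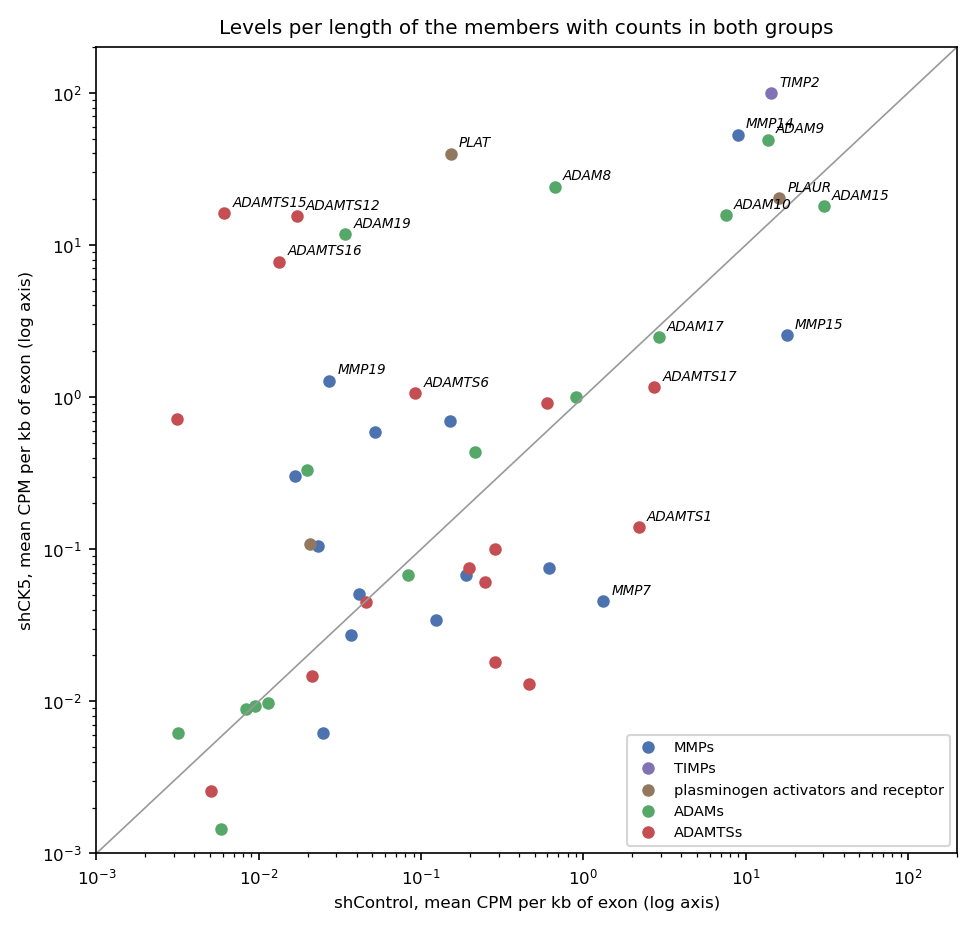
Mean level per kb of exon in shControl (horizontal axis) and shCK5 (vertical axis) for each member with counts in both groups, both in CPM per kb on log axes, coloured by family, with the line of equal levels. TIMP2, MMP14 and ADAM9 lie at the top right, PLAT, ADAM8, ADAM19, ADAMTS12, ADAMTS15 and ADAMTS16 far above the line, and MMP15, MMP7 and ADAMTS1 below it.

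Neighbouring members on a chromosome were not always alike. ADAMTS8 and ADAMTS15 are 19.98 kb apart on chromosome 11 on opposite strands, and ADAMTS8 stayed at 46 counts in each group while ADAMTS15 went from 8 to 20954. ADAM9 and ADAM32 are 1.85 kb apart, and ADAM9 rose while ADAM32 did not pass. A cluster of 9 MMP genes lies within 435.2 kb on chromosome 11 (102520508 to 102955734), in the order MMP7, MMP20, MMP27, MMP8, MMP10, MMP1, MMP3, MMP12 and MMP13. That cluster had 820 counts in shControl and 69 in shCK5, of which MMP7 supplied 696 and 24. WTAPP1, which spans MMP10, MMP1 and part of MMP3, had no count in shControl and 6 in shCK5, and MMP10, MMP1 and MMP3 had none.

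Partners of these enzymes were read in the same fit from lists of known pathway genes. Over all genes tested in that fit 82.7% were called, 40.9% higher and 41.7% lower. The counts for each list are therefore a description only. Of 12 tested plasminogen system partners, 6 rose, 3 fell and the other 3 were not called (their median on the log2 scale was 0.804, against -0.0194 over all genes tested). LRP1, which clears protease-inhibitor complexes, rose from 19.6 ± 0.756 to 72.4 ± 3.54 CPM, and the inhibitor SERPINB2 from 0.313 ± 0.0479 to 1.03 ± 0.112 CPM. SERPINF2, the inhibitor of plasmin, fell from 4.42 ± 0.598 to 0.989 ± 0.0905 CPM (SD, n = 3 each). PLG, the gene of plasminogen itself, stayed near 0.185 CPM in both groups and did not pass.

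Of 10 tested cell-surface serine proteases and their inhibitors, 9 fell and 1 rose (median log2 fold change -4.24). TMPRSS2 fell from 151 ± 9.86 to 3.31 ± 0.299 CPM, and PRSS8, or prostasin, from 53.0 ± 1.82 to 2.37 ± 0.131 CPM. FAP, which is also a fibroblast marker, fell from 6.04 ± 0.624 to 0.253 ± 0.0977 CPM. The exception was PRSS23, which rose from 42.7 ± 2.29 to 541 ± 4.79 CPM (SD, n = 3 each). Many of these proteases belong to epithelial cells. In the same libraries 8 of 10 line and epithelial markers fell, the targeted KRT5 among them, and the 2 that rose were RB1 and SMAD4. How the fall of these markers bears on that of the proteases was not tested.

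Of 6 tested proprotein convertases, which cut the propeptides of MMP14, the ADAMs and the ADAMTSs, 1 rose and 4 fell (median log2 fold change -0.523). FURIN was the one that rose, from 42.1 ± 1.97 to 158 ± 1.53 CPM. PCSK6 fell from 20.1 ± 0.998 to 0.407 ± 0.0501 CPM (SD, n = 3 each). Among other metalloproteases and regulators of MMP activity, 6 of 15 rose and 6 fell (median 0.134). The protease inhibitor gene A2M fell by 6.96 on the log2 scale (-7.91 without shCK5 replicate 2), MME, the membrane protease neprilysin, from 39.99 ± 1.503 to 0.470 ± 0.0416 CPM, and the testican gene SPOCK2 from 34.3 ± 0.331 to 0.837 ± 0.157 CPM. PCOLCE2, an enhancer of procollagen cleavage, rose from 0.625 ± 0.178 to 2.79 ± 0.202 CPM and ECE1 from 115 ± 1.66 to 360 ± 6.33 CPM (SD, n = 3 each).

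Of 6 tested ADAMTS-like proteins and papilin, which resemble ADAMTSs but have no protease domain, 3 rose and 2 fell (median log2 fold change 0.845). ADAMTSL1 rose from 0.409 ± 0.108 to 29.7 ± 1.05 CPM, and PAPLN fell from 2.34 ± 0.539 to 0.971 ± 0.267 CPM (SD, n = 3 each). Of 10 regulators of ADAM10 and ADAM17, 3 rose and 7 fell by mostly small amounts (median -0.493), with TSPAN5, a tetraspanin that carries ADAM10, rising from 9.11 ± 0.233 to 35.5 ± 0.941 CPM and TSPAN17 falling from 122 ± 0.712 to 61.9 ± 1.53 CPM. RHBDF1 and RHBDF2, the carriers of ADAM17, had log2 fold changes of 0.537 and -0.397 and both passed. Of 7 EGFR ligands released by shedding, 4 rose and 2 fell (median 1.61). EREG rose from 0.221 ± 0.0317 to 5.45 ± 0.520 CPM and AREG from 4.67 ± 0.102 to 54.5 ± 0.970 CPM. HBEGF rose from 11.2 ± 0.457 to 128 ± 1.65 CPM, and BTC fell from 3.49 ± 0.317 to 1.04 ± 0.216 CPM (SD, n = 3 each).

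Of 17 tested cathepsins and cystatins, the lysosomal proteases and their inhibitors, 9 rose and 8 fell (median log2 fold change 0.132). CST3, or cystatin C, had 10 counts in shControl, all in replicate 1, and 207 ± 4.55 CPM in shCK5 (log2 fold change 12.14; 16.9 without shControl replicate 1 and 11.5 without replicate 2). CST4, another secreted cystatin, was at 0 in every shControl library and reached 6.08 ± 0.294 CPM in shCK5. CSTA fell from 5.04 ± 0.743 to 0.319 ± 0.144 CPM. CTSD, the gene of cathepsin D, had 0.104 and 0.0267 CPM and only 2.9% of its exon bases outside other genes, so it was not read. Of 10 tested transcription factors of protease promoters (AP-1 and ETS factors and RUNX2), 8 rose and 1 fell (median 1.08). FOSL1, ETV1 and ETV5 had log2 fold changes of 4.69, 3.199 and 2.30, and JUND fell from 135 ± 2.43 to 66.8 ± 5.93 CPM (SD, n = 3 each). JUNB lies wholly inside other genes and was at 0.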

How the data were processed

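RNA-seq read counts per gene were analysed in 3 shControl and 3 shCK5 libraries, each column being assigned by its name to the sample of that title. The authors deposited raw counts. Build GRCh38 and the tools STAR, cutadapt, Cufflinks and SAMtools are listed in the submitters' processing notes. Per the file headers, counts came from sorted alignments. What program counted the reads, on which annotation and strand, and how it treated overlapping genes has no entry in the sources used here. Between 63.1% and 65% of counts above 20 were even, which counting both mates of a fragment would give; this was not tested, but counting error may be larger than the counts imply.

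The fit used edgeR 4.0.16 under R 4.3.3: filterByExpr left 19567 genes, TMM scaled the libraries, and a quasi-likelihood test without covariates (prior count 0.125) set shCK5 against shControl, positive values being higher in shCK5. Benjamini-Hochberg adjusted p-values below 0.05 were called. The SE is the log2 fold change divided by the root of the F statistic. It can be too small where a group has few counts. DESeq2 gave 0.512 for ADAMTS15, 1.49 for ADAMTS9 and 0.192 for ADAM19, where this SE was 0.109, 0.293 and 0.0776. The fit was also run on simulated counts with 200 changed genes, a single dispersion and no changed gene of low level. In the real data 82.7% of genes tested were called. The simulation therefore does not show how the scaling or the largest folds hold here. The table gives gene symbols; Ensembl identifiers, positions, exon lengths and overlaps came from GENCODE v29 on GRCh38, not known to be the authors' annotation. Alternatives were library size alone, RLE factors, DESeq2 1.42.0, no filter, leaving out each library, a replicate block and, added after seeing the data, halved counts, members with at least 50% of exon bases outside other genes, and another length. Same-numbered libraries did not deviate together (r of -0.00606, 0.00752 and -0.0033). Within groups, pairs of libraries differed by more than sampling noise (chi-square per degree of freedom of at least 4.04).

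The members and lists were chosen with earlier results of these data known. Genes named were the TIMPs, plasminogen genes, MMP2, MMP9, MMP14, ADAM10, ADAM17, every member with at least 1 CPM in a group, an adjusted p below 0.05 and a 2-fold difference, every member without a count in 1 group and with at least 0.1 CPM in the other, and, from each partner list, up to 3 called genes per direction with the largest fold and at least 1 CPM in a group. Other members are named with a value so that all are accounted for, and other partner genes were chosen after their values were seen. Some genes of the partner and marker lists are not reported here by name.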

Additional observations from a re-analysis of the deposited data

How the results depend on the processing

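The counts of 23 members higher and 14 lower stayed within 1.5 times under each alternative: 22 to 23 higher and 13 to 15 lower. Without a filter ADAMTS10 was also called lower. With halved counts MMP9, ADAMTS2 and ADAMTS8 were not tested, and 22 members were higher. Among members with at least 50% of exon bases outside other genes, 22 were higher and 13 lower. Leaving out each library gave 22 to 23 higher, 13 to 14 lower and 16064 to 16177 of all genes called. With the replicate number as a block, 23 members were higher, 14 lower and 15926 of all genes called; the block changed no call of a member. Of 477 pairs of a tested member and an alternative, 470 kept direction and call. The exceptions were MMP20 and ADAM22, given above, and ADAMTS8, which was never called and reversed sign to 0.374 without shControl replicate 3 and 0.224 without shCK5 replicate 2 (range over libraries left out -0.204 to 0.374); the cause was not tested. Library size alone moved the median over all genes tested from -0.0194 to -0.156 on the log2 scale, with 7167 genes higher and 9118 lower in place of 8012 and 8165, and put the family sums at 1.90-fold (MMPs), 6.37-fold (TIMPs), 4.42-fold (plasminogen genes), 1.89-fold (ADAMs) and 5.34-fold (ADAMTSs). It also put ADAM10 and ADAM11 below 2-fold, at 0.918 and 0.879 on the log2 scale. PLAUR and ADAM17 moved to 0.188 and -0.369 and kept their calls. With exon bases outside every other gene as the length, 10 of 24 levels per kb moved beyond 1 SD, TIMP2 passed PLAUR and ADAM10 passed MMP14 in shControl, and ADAM10 passed ADAMTS15 in shCK5. Members at under 1 CPM rest on few counts.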
